A study of Mus musculus with 4 samples.

Results

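The mouse haemoglobin chains analysed here are encoded by 7 genes, Hbb-bs, Hbb-bt, Hbb-bh1, Hbb-y, Hba-x, Hba-a1 and Hba-a2, taken by symbol from feature lists that together hold 31914 genes. All 7 are in both feature lists. They were followed in single cells of C57BL/6J embryos that had been enriched for CD45 on magnetic beads and then sorted as live CD45+ F4/80- IL7Ra+ cells, a gate meant for lymphoid tissue inducer (LTi) cells, the innate lymphocytes that start lymph node formation, and their precursors. The 4 libraries were embryonic periphery at E14.5, embryonic periphery at E13.5, fetal liver at E14.5 and fetal liver at E13.5, with 1 library per group. Neither the number of embryos behind a library nor the parts of the body counted as periphery is given in the sources used here. The periphery libraries came from version 2 of the 10x Genomics 3' kit and those of fetal liver from version 3, so tissue and kit cannot be told apart.

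Haemoglobin is a tetramer of alpha type and beta type chains around haem, made almost only in red cells and their precursors. Mouse embryos first use primitive red cells from the yolk sac, which carry the embryonic chains of Hba-x (zeta), Hbb-y (epsilon y) and Hbb-bh1 (beta h1) and later add adult chains. Definitive red cells, which arise in the fetal liver, carry the adult chains of Hba-a1 and Hba-a2 (alpha) and of Hbb-bs and Hbb-bt (beta). A sort for IL7Ra+ CD45+ cells is not meant to hold red cells, but globin messages of lysed red cells are common in droplet libraries of blood-forming tissue.

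The beta type genes lie in a row on chromosome 7 of GRCm38 in the GENCODE M21 annotation, all on the minus strand. Hbb-bt spans chr7:103812524-103813996, Hbb-bs chr7:103826534-103828096, Hbb-bh1 chr7:103841637-103843164 and Hbb-y chr7:103851749-103853216, with gaps of 12.54, 13.54 and 8.59 kb between neighbours. The alpha type genes lie on the plus strand of chromosome 11, Hba-x at chr11:32276400-32278116, Hba-a1 at chr11:32283511-32284465 and Hba-a2 at chr11:32296489-32297298, with gaps of 5.40 and 12.0 kb. In both rows the genes of one type sit side by side, and yet Hbb-bt behaved differently from its neighbour Hbb-bs in the sorted cells. The 120 bases before the start of 5 of the genes, as RefSeq places the starts on GRCm38.p6, are therefore shown 5′ to 3′ on the gene's strand, with matches in capitals to the motifs CACCC and CCAAT and the motif GATA, each on both strands, and to the motif TATAA on the gene's strand.
Hbb-bt: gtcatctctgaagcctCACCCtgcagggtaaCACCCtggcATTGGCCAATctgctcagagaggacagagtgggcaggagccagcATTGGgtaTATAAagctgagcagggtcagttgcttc
Hbb-bs: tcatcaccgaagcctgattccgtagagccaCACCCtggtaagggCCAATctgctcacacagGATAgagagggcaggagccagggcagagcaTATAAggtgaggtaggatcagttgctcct
Hbb-y: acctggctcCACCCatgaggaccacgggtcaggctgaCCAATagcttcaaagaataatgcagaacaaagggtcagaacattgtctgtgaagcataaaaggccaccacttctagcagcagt
Hba-x: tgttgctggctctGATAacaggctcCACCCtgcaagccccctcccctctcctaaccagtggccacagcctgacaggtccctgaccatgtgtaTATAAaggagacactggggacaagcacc
Hba-a1: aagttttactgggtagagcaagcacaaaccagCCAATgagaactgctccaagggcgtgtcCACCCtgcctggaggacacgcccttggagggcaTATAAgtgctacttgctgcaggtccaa

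These windows are chr7:103813924-103814043 for Hbb-bt, chr7:103827929-103828048 for Hbb-bs, chr7:103853208-103853327 for Hbb-y, chr11:32276480-32276599 for Hba-x and chr11:32283552-32283671 for Hba-a1. The RefSeq table held 6 of the 7 genes, Hbb-bh1 being the other. Hbb-bt and Hbb-bs agreed at 77.1% of 118 aligned bases. The Hbb-bt window held 2 matches to CACCC against 1 in that of Hbb-bs, and 3 matches to CCAAT against 1, of which an adjoining pair on opposite strands reads ATTGGCCAAT. The single GATA match of Hbb-bs has no counterpart in the window of Hbb-bt. No match overlapped another. Such short motifs are common: of 32851 RefSeq promoter windows of the same length, 31.7% held CACCC, 21.3% CCAAT, 29.5% GATA and 8.53% TATAA. A match describes letters and is no proof of a bound site.

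Some of these genes are close copies. The longest protein-coding GENCODE M21 transcripts of Hba-a1 and Hba-a2 were identical at 99.8% of 538 aligned bases. Of the 50-base windows in the last 400 bases of Hba-a1, where a 3' kit reads, 85.8% also occurred in Hba-a2. Hbb-bt and Hbb-bs were identical at 92.7% of 626 aligned bases, and 54.4% of the windows of Hbb-bt occurred in Hbb-bs. No window was shared between Hbb-y and Hbb-bh1. How reads that fit both copies were counted is not given in the sources used here, so the split between Hba-a1 and Hba-a2 is uncertain and that between Hbb-bs and Hbb-bt partly so. Values are unique molecular identifiers (UMIs), which tag single molecules at the 3' end, and levels are CPM, the UMIs of a gene per 1000000 UMIs of the kept cells. A tagged molecule counts once whatever its length, so levels of different genes were compared without dividing by length.

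After filtering, 4354 and 4165 cells of periphery and 10768 and 10263 of fetal liver remained at E14.5 and E13.5, with median depths of 8503 and 11081 UMIs in periphery and 15586.5 and 18450 in fetal liver. Libraries of 1 tissue shared at most 33 cell barcodes. The 33 shared by the periphery libraries carried 7 globin UMIs at E14.5 and 8 at E13.5. Intervals in parentheses are exact 95% intervals, Poisson for CPM and Clopper-Pearson for shares, and reflect counting error alone. No test was possible with single libraries, and no difference between groups can be set against a spread between replicates.

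Globin messages were rare in all 4 libraries and were by far the most frequent in periphery at E13.5. The 7 genes summed to 34.7 CPM (32.9 to 36.5) in periphery at E14.5, 356 CPM (351 to 361) in periphery at E13.5, 6.61 CPM (6.24 to 6.999) in fetal liver at E14.5 and 10.99 CPM (10.53 to 11.46) in fetal liver at E13.5. The periphery library of E13.5 owed this to very few barcodes: without the 54 cells of all libraries that held 10 or more globin UMIs, the sums were 24.5, 20.4, 3.55 and 8.72 CPM in the same order. In these remaining cells both periphery libraries stood above both fetal liver libraries.

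Of the embryonic chains, Hba-x stood at 1.09 CPM (46 UMIs) in periphery at E14.5, 11.1 CPM (558 UMIs) in periphery at E13.5 and 0.0392 CPM (7 UMIs) in fetal liver at E14.5. It had 0 UMIs in fetal liver at E13.5, which allows a level of up to 0.015 CPM by a floor of 3 UMIs. Hbb-y was the most abundant embryonic gene everywhere, at 10.7 CPM (9.73 to 11.7) in periphery at E14.5, 109 CPM (106 to 112) in periphery at E13.5, 0.285 CPM (0.213 to 0.375) in fetal liver at E14.5 and 0.383 CPM (0.302 to 0.480) in fetal liver at E13.5. The 2 fetal liver intervals of Hbb-y overlap. Hbb-bh1 was near absent, with 2, 86, 2 and 21 UMIs in the 4 libraries, 72 of the 86 in 1 barcode.

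Of the adult alpha genes, Hba-a1 stood at 4.87 CPM (4.23 to 5.58) in periphery at E14.5, 50.1 CPM (48.2 to 52.1) in periphery at E13.5, 1.14 CPM (0.991 to 1.31) in fetal liver at E14.5 and 0.0858 CPM (0.0500 to 0.137) in fetal liver at E13.5. Hba-a2 followed it at 2.96, 34.6, 0.823 and 0.0757 CPM. The share of Hba-a1 in the UMIs of both copies was 62.2% (56.8 to 67.5), 59.2% (57.7 to 60.6), 58.1% (52.8 to 63.3) and 53.1% (34.7 to 70.9), so the copies had about the same proportion in the kept cells of every library. In the barcodes of periphery at E14.5 that failed the filters it was 39.0% (29.7 to 49.1). The share in fetal liver at E13.5 rests on 32 UMIs.

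The adult beta genes parted from each other. Hbb-bs stood at 2.13 CPM (1.71 to 2.62) in periphery at E14.5, 86.6 CPM (84.1 to 89.3) in periphery at E13.5, 0.828 CPM (0.700 to 0.973) in fetal liver at E14.5 and 0.262 CPM (0.196 to 0.344) in fetal liver at E13.5. Hbb-bt stood at 12.9 CPM (11.8 to 14.0), 62.7 CPM (60.6 to 65.0), 3.48 CPM (3.21 to 3.77) and 10.1 CPM (9.64 to 10.53). Over all kept cells Hbb-bt was thus the most abundant globin of both fetal liver libraries and of periphery at E14.5. In periphery at E14.5 this rested on the cells with 10 or more globin UMIs. Without them Hbb-bt stood at 2.69 CPM there, below Hbb-y at 10.7, Hba-a1 at 4.90 and Hba-a2 at 2.98 CPM. In fetal liver at E13.5 Hbb-bt held 1997 of the 2178 globin UMIs. Hbb-bs made up 14.2% (11.6 to 17.1), 58.0% (56.9 to 59.1), 19.2% (16.5 to 22.2) and 2.54% (1.90 to 3.31) of the adult beta UMIs, a wider range than that of the alpha copies. These shares depended on the cells with 10 or more globin UMIs. Without them they were 44.1, 31.5, 7.18 and 2.04%.

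**Figure D1:**
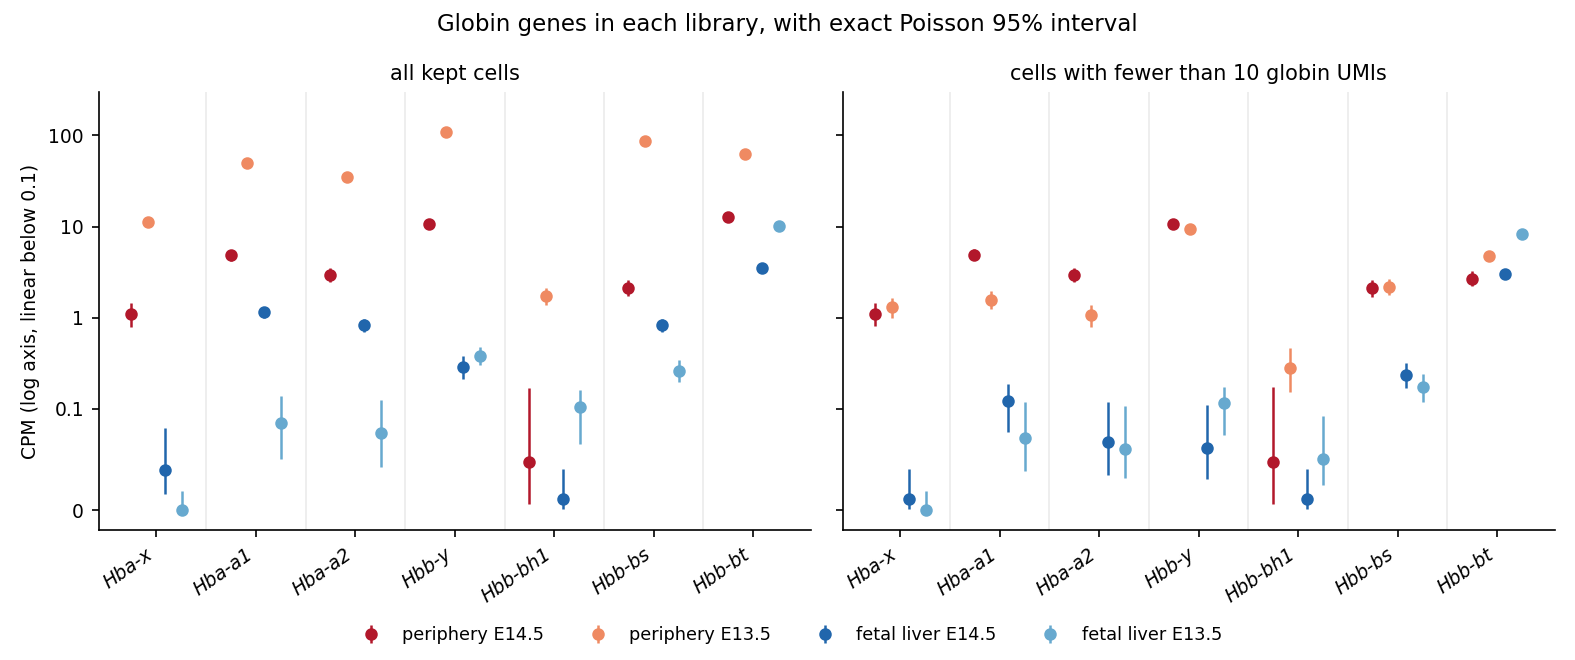
CPM of each globin gene on a log axis that is linear below 0.1, with 1 point per library and bars for exact Poisson 95% intervals, over all kept cells (left) and over cells with fewer than 10 globin UMIs (right). On the left periphery at E13.5 stands above the other libraries for every gene, up to 109 CPM for Hbb-y. On the right both periphery libraries stand near 10 CPM for Hbb-y, and Hbb-bt is highest in fetal liver at E13.5 at 8.25 CPM.

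Most cells carried no globin UMI. At least 1 was found in 19.9% (18.8 to 21.2) of cells of periphery at E14.5, 17.9% of periphery at E13.5, 4.18% of fetal liver at E14.5 and 9.82% of fetal liver at E13.5. After each cell was thinned to 2000 UMIs, which left out 175, 75, 233 and 95 shallower cells, the shares were 5.91, 4.38, 0.731 and 1.88%. The share of globin-positive cells was therefore larger in periphery than in fetal liver at equal depth as well as before thinning. In periphery at E14.5 the variance of UMIs per cell over their mean was between 0.990 and 1.09 for Hbb-bs, Hbb-bh1, Hbb-y, Hba-x, Hba-a1 and Hba-a2, the value near 1 of random single molecules, with at most 4 UMIs of any of them in a cell. The value of Hbb-bh1 rests on 2 UMIs. For Hbb-bt the ratio was 56.1 in the same library, with up to 129 UMIs in a cell. In periphery at E13.5 it lay between 60.4 for Hbb-bh1 and 4544 for Hbb-y. In fetal liver Hbb-bt had a ratio of 3.48 at E14.5 and 5.57 at E13.5. At E14.5 the ratio there was higher for Hba-a1 (57.8), Hba-a2 (46.5), Hbb-y (31.6), Hbb-bs (18.8) and Hba-x (3.86). It was lower for Hbb-bh1, which had 2 UMIs. At E13.5 it was higher than that of Hbb-bt for Hbb-y (18.4) and Hbb-bh1 (6.43). It was lower for Hbb-bs (4.73), Hba-a1 (1.47) and Hba-a2 (1.40).

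A total of 54 kept cells, namely 10 and 12 of periphery and 8 and 24 of fetal liver at E14.5 and E13.5, held 10 or more globin UMIs and are called globin-rich here. In periphery at E13.5 a pair of barcodes, both in cluster P10, held 16550 of the 17888 globin UMIs, or 92.5%. The first had 8706 globin UMIs among 10341, with 3699 of Hbb-bs, 2237 of Hbb-bt, 1514 of Hba-a1, 1256 of Hba-a2 and 0 of the 3 embryonic genes. The second had 7844 globin UMIs among 10213, with 4994 of Hbb-y, 921 of Hba-a1, 542 of Hbb-bs, 489 of Hba-x, 426 of Hba-a2, 400 of Hbb-bt and 72 of Hbb-bh1. So the first carried the adult set alone and the second the embryonic set together with adult chains. Both had few genes (518 and 575) and no UMI of Ptprc, which encodes the CD45 used in the sort, or of Il7r. Alas2, which encodes the first enzyme of haem synthesis in red cells, had 28 and 27 UMIs in them.

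In fetal liver at E14.5 the 3 richest barcodes lay in cluster FL6, an unnamed cluster of low depth. Its first gene by fold was Pf4, a platelet gene, found in 2 of 322 cells at E14.5 and 5 of 358 at E13.5. They held 186 globin UMIs among 5663, 160 among 4033 and 77 among 2231, or 3.28, 3.97 and 3.45%. The adult alpha genes gave 140, 117 and 53 of these, Hbb-bs 34, 27 and 17, and Hbb-bt 12, 16 and 7, while Hbb-y, Hbb-bh1 and Hba-x had 0. Alas2 (7, 3 and 1 UMIs) and Slc4a1, the anion exchanger band 3 of the red cell membrane (6, 2 and 0), were present too. These barcodes carried the adult set only, as did the first barcode of periphery at E13.5. In fetal liver at E13.5 the richest cell had 54 globin UMIs among 16972, 35 of Hbb-y and 19 of Hbb-bt. A cell of E14.5 had 40 of Hbb-y and 5 of Hba-x among 20757. Both lay in FL1, an innate lymphoid progenitor-like cluster, and had none of Alas2 or Slc4a1.

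**Figure D2:**
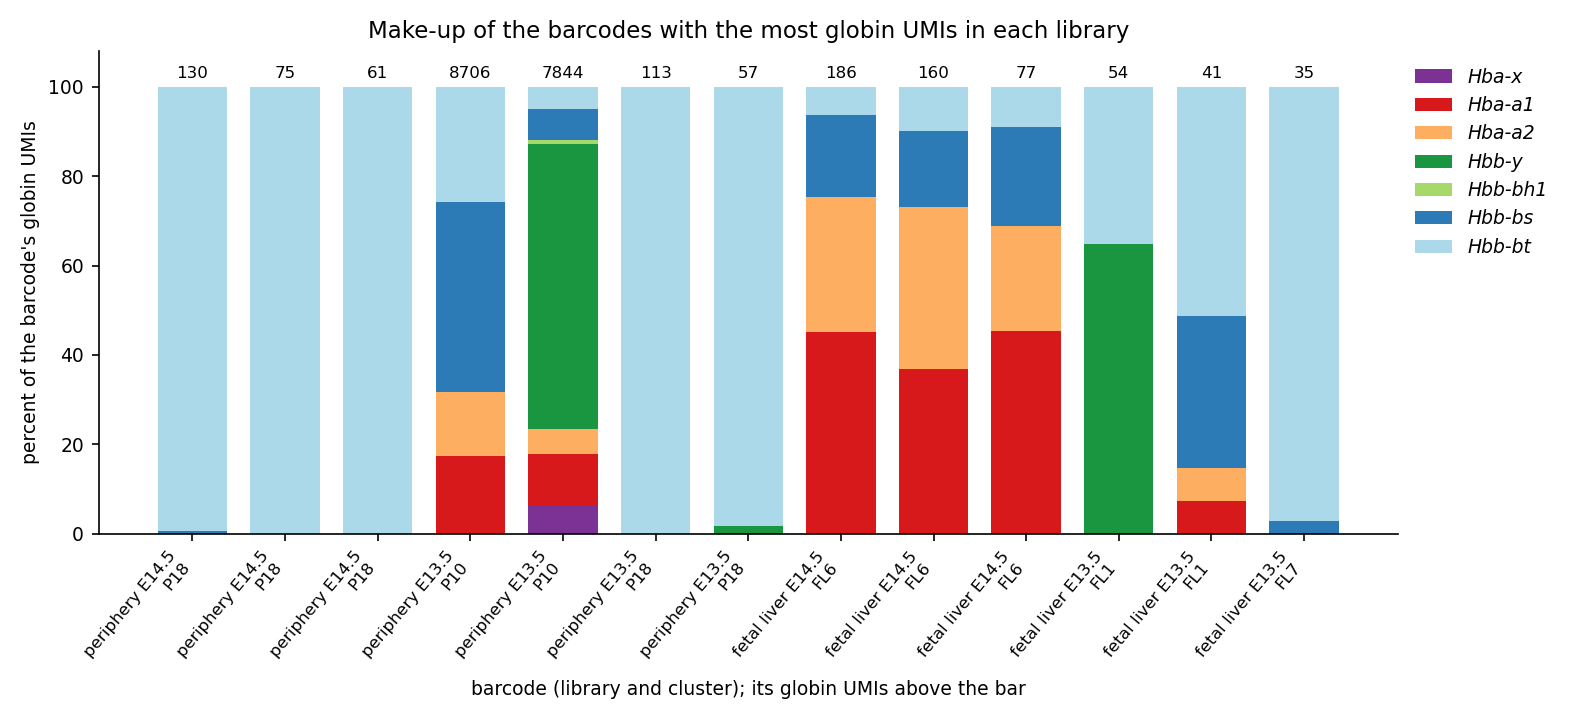
Share of each globin gene, in percent, among the globin UMIs of the barcodes with the most globin UMIs in each library, with the number of globin UMIs above each bar and library and cluster below. The first barcode of periphery at E13.5 (8706 UMIs) holds adult chains only and the second (7844 UMIs) mostly Hbb-y. The richest barcodes of periphery at E14.5 hold almost only Hbb-bt.

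The other common kind of globin-rich cell carried Hbb-bt and hardly any other globin. In 37 of the 54 globin-rich cells Hbb-bt gave at least 90% of the globin UMIs. Together these 37 held 1017 UMIs of Hbb-bt, 5 of Hbb-bs and 0 of the 3 alpha type genes, although haemoglobin needs both kinds of chain. Alas2 and Slc4a1 had 0 UMIs in all 37, while Hemgn, a nuclear protein gene of red cell precursors and progenitors, had 14. They were deep cells, with a median of 22828 UMIs and 4608 genes, 28 of them had a UMI of Ptprc, and globin took at most 0.593% of their UMIs. Of the 37, 15 lay in cluster P18, 13 in FL7, 4 in FL1, 2 in FL2 and 1 each in FL0, P1 and FL4.

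In fetal liver most Hbb-bt UMIs lay in 4 clusters, FL7, FL2, FL0 and FL1. Cluster FL7 is stem and multipotent progenitor-like by 6 of 11 markers, among them Adgrl4, Hlf, Hoxa9 and Cd34. Another of the 11, Gata2, was lower in FL7 than in the rest. It stood at 3.76 against 48.1 CPM at E14.5 and at 8.14 against 12.6 CPM at E13.5. The Hbb-bt level of FL7 was 10.8 CPM (8.83 to 13.2) at E14.5 and 23.9 CPM (22.3 to 25.7) at E13.5. FL2 (led by Ctla2a, Adgrl4 and Ecscr) stood at 11.9 and 12.5 CPM and FL0 (led by Cavin2) at 10.04 and 10.8 CPM, both unnamed. FL1, innate lymphoid progenitor-like by Tcf7, Gata3, Tox and Zbtb16, stood at 15.2 CPM (12.9 to 17.9) at E14.5 and 15.3 CPM (13.7 to 16.99) at E13.5. The 4 clusters together held 14.9% of the cells and 64.3% of the Hbb-bt UMIs at E14.5, and 5132 of the 10263 cells and 85.5% of the UMIs at E13.5. Their common level was 12.2 CPM (11.03 to 13.46) at E14.5 and 16.1 CPM (15.3 to 16.9) at E13.5. The B lineage-like clusters FL13, FL14 and FL16 stood at 0.325 CPM (0.206 to 0.487) and 0.503 CPM (0.104 to 1.47), and all other clusters together at 2.65 and 3.33 CPM. Among those, FL6 stood at 29.6 CPM (20.6 to 41.1) at E14.5, all of it from the 3 rich barcodes, and at 12.3 CPM (7.88 to 18.3) at E13.5, from 11 of 358 cells. FL4, group 1 ILC or NK-like, stood at 12.4 CPM (6.93 to 20.4) at E13.5, from 2 of 98 cells, and at 1.74 CPM at E14.5.

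A UMI of Hbb-bt was found in 16.2% (12.5 to 20.4) of FL7 cells at E14.5 and 21.7% (19.5 to 24.1) at E13.5, at median depths of 25555 and 24375 UMIs. In B lineage-like FL13, cells that are not known to make globin, it was found in 0.656 and 0.857% at median depths of 15257.5 and 12274 UMIs. After thinning to 2000 UMIs the shares were 2.51 and 4.67% in FL7 and 0.0729 and 0% in FL13, so FL7 stayed above FL13 at equal depth. The order among FL7, FL1, FL2 and FL0 did not hold at E14.5. There they stood at 16.2, 17.8, 13.3 and 12.2% before thinning. After it they stood at 2.51, 3.24, 2.91 and 2.54%, with overlapping intervals. At E13.5 FL7 stayed the highest of these clusters. Hbb-bs had 3 and 7 UMIs in FL7, against 101 and 773 of Hbb-bt. Over all cells with fewer than 10 globin UMIs, Hbb-bs made up 7.18% (5.22 to 9.58) of the adult beta UMIs of fetal liver at E14.5 and 2.04% (1.42 to 2.84) at E13.5, but 44.1% (37.1 to 51.2) and 31.5% (26.6 to 36.7) in periphery. The level of FL7 depended on how the cells were clustered: with another seed or resolution, the clusters that took the largest number of its cells, between 172 and 268 of 359 at E14.5 and between 639 and 1101 of 1285 at E13.5, stood between 6.86 and 13.6 CPM at E14.5 and between 9.12 and 26.5 CPM at E13.5. The level of the largest B lineage-like cluster, FL14, stood between 0.282 and 0.306 CPM at E14.5 in the same clusterings.

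**Figure D3:**
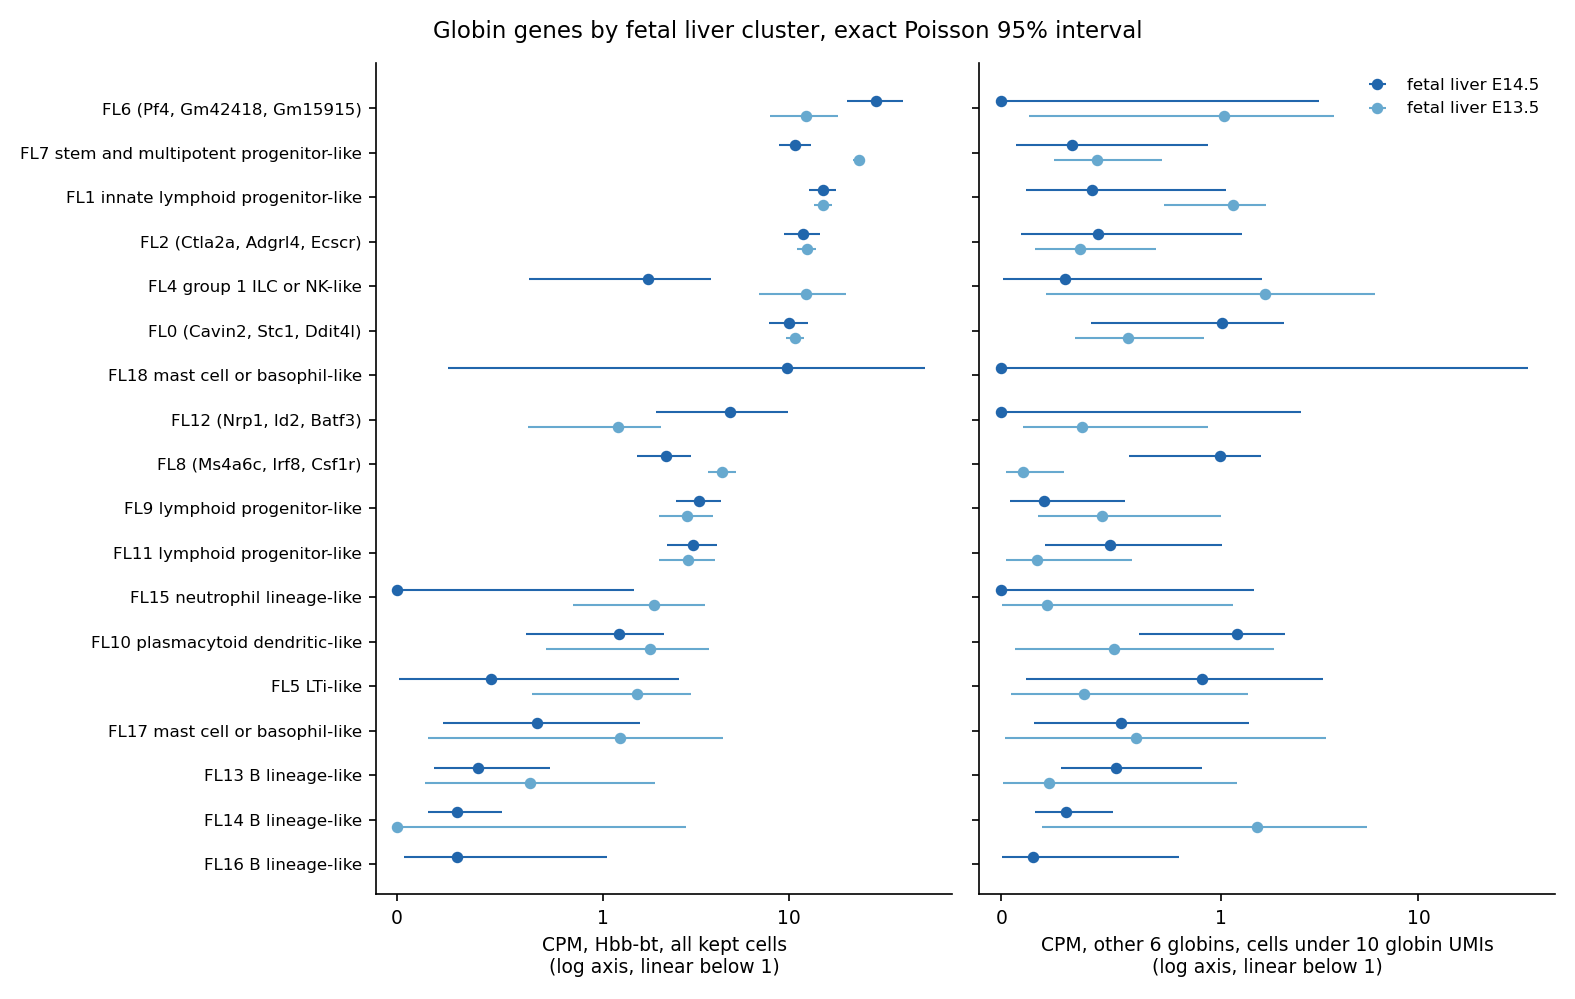
CPM of Hbb-bt over all kept cells (left) and of the other 6 globin genes over cells with fewer than 10 globin UMIs (right) in each fetal liver cluster of at least 50 cells, with exact Poisson 95% intervals on log axes that are linear below 1. Hbb-bt is highest in FL6 at E14.5, at 29.6 CPM from 3 cells, followed by FL7 at E13.5 at 23.9 CPM, and is at 0 in FL14 at E13.5, while the other 6 genes together stay at or below 1.67 CPM in every cluster.

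In periphery, apart from cluster P10, which holds the pair of rich barcodes and 2640 of the 3151 Hbb-bt UMIs of E13.5, Hbb-bt was concentrated in 29 cells of cluster P18, 16 at E14.5 and 13 at E13.5, which stayed together in all 3 other clusterings. Their leading genes were Gzma, a granzyme gene, Tcrg-C2, a constant region gene of the gamma T cell receptor chain, Cd3e and Il2ra, and the cluster was left unnamed. At E14.5, 13 of the 16 cells had an Hbb-bt UMI and 10 had at least 10. The 3 highest cells had 129, 75 and 61 UMIs, the median was 18.5 and the lowest 0. At E13.5, 8 of the 13 cells had a UMI and 6 had at least 10, with 113, 56 and 36 in the highest 3, a median of 5 and a lowest of 0. The level was 1043 CPM (948 to 1145) in P18 at E14.5, against 2.44 CPM (1.99 to 2.96) in all other cells of that library. In P18 at E13.5 it was 754 CPM (666 to 850.0), against 57.9 CPM in all other cells of the library and 4.62 CPM (4.04 to 5.26) in those with fewer than 10 globin UMIs.

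These few cells held 81.3% of the Hbb-bt UMIs of periphery at E14.5 (443 of 545) and 8.41% of those at E13.5 (265 of 3151). The alpha type genes had 1 UMI in P18 at each stage, and Hbb-bs also 1 at each. Alas2 and Slc4a1 had 0. Gata1, which encodes a transcription factor of red cells, megakaryocytes and mast cells, stood at 28.2 CPM in P18 at E14.5 against 3.32 CPM in the rest, and at 39.8 CPM against 2.83 CPM at E13.5. The next cluster was P1, unnamed and led by Sdpr, Hmga2 and Cd34. It had 39.98 CPM (25.1 to 60.5) of Hbb-bt in 30 cells at E14.5 and 16.5 CPM (14.1 to 19.2) in 637 cells at E13.5. Among the clusters of at least 50 cells, the LTi-like ones had low levels, with 1.28 CPM (0.681 to 2.19) in P16 and 2.55 CPM (1.46 to 4.13) in P17 at E14.5 and 1.79 CPM (1.002 to 2.95) in P0 at E13.5.

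The other 6 globin genes were found in every periphery cluster of at least 50 cells. In cells with fewer than 10 globin UMIs, and over clusters of at least 50 cells, their sum lay between 7.58 CPM in P19 and 42.4 CPM in P13 at E14.5 and between 11.4 CPM in P3 and 28.0 CPM in P13 at E13.5. The median cluster stood at 23.5 and 14.1 CPM. The cells of P13 were shallow at E14.5, with a median of 1352.5 UMIs. Per 100 cells P13 then held 20.8 UMIs of these genes, against 21.4 in the median cluster and 38.3 in the highest, P8. At E13.5 P13 was the highest per 100 cells too, at 36.5. They were present in LTi-like clusters (24.6 CPM in P16 at E14.5), in B lineage-like ones (13.8 CPM in P5 at E14.5) and in the monocyte or macrophage-like P13. Hbb-y made up between 36.2% in P3 and 66.7% in P2 of these UMIs at E14.5, and between 51.0 and 75.0% at E13.5, with wide intervals that overlapped between most clusters. In fetal liver the same sum reached at most 1.21 CPM at E14.5 and 1.67 CPM at E13.5 in any cluster of at least 50 cells.

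**Figure D4:**
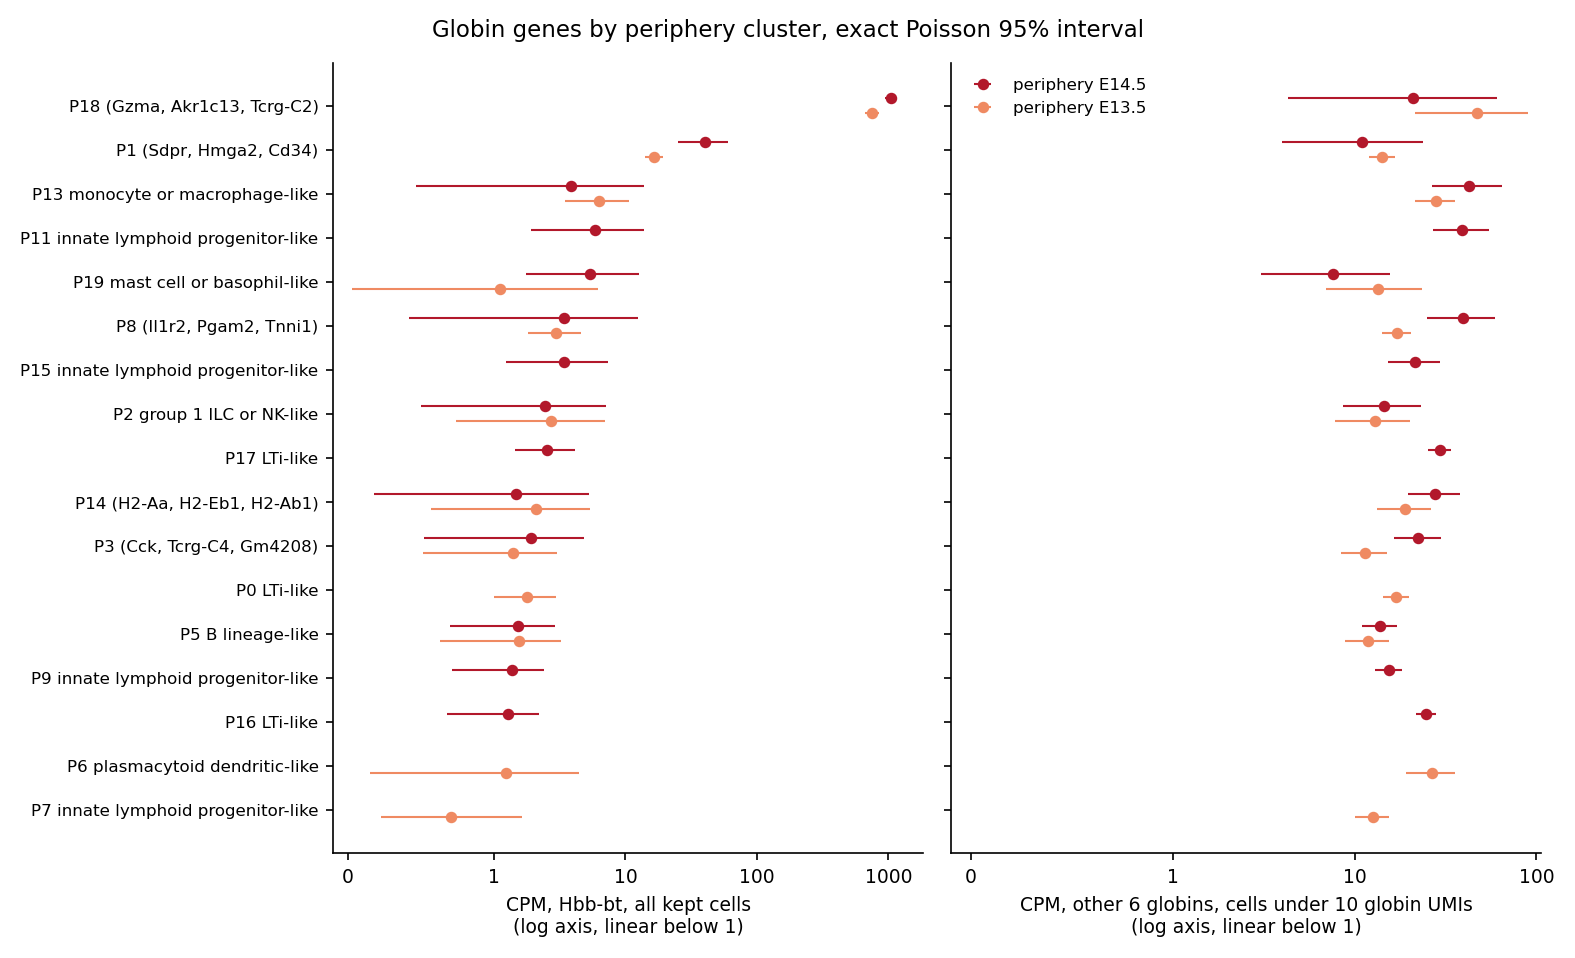
CPM of Hbb-bt over all kept cells (left) and of the other 6 globin genes over cells with fewer than 10 globin UMIs (right) in periphery clusters of at least 50 cells and in P18 and P1, with exact Poisson 95% intervals on log axes that are linear below 1. Hbb-bt stands at 1043 and 754 CPM in P18, at 39.98 and 16.5 CPM in P1 and at 6.31 CPM or below in the other clusters plotted, whereas the other 6 genes lie between 7.58 and 42.4 CPM in the clusters of at least 50 cells. P10, with fewer cells, is not plotted.

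The number of these UMIs in a cell followed its depth less than that of Hbb-bt did. When the cells with fewer than 10 globin UMIs of periphery at E14.5 were split into 4 groups of equal size by depth, with median depths between 5269 and 15020 UMIs, the other 6 genes gave 22.3, 19.2, 20.3 and 22.7 UMIs per 100 cells from the shallowest to the deepest group. At E13.5 they gave 15.5, 16.4, 21.002 and 22.7. Hbb-bt gave 1.10, 1.66, 2.49 and 5.16 at E14.5 and 2.12, 2.60, 3.95 and 14.2 at E13.5. In fetal liver Hbb-bt was likewise higher in deeper cells, with 0.967, 2.04, 7.06 and 10.1 UMIs per 100 cells at E14.5 and 4.69, 13.8, 18.7 and 26.5 at E13.5, whereas the other 6 gave between 0.558 and 1.21. Hbb-bt UMIs were thus more frequent in deeper cells, and the other 6 genes less so or not at all. Free RNA in the droplets as a source of these UMIs was not tested.

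**Figure D5:**
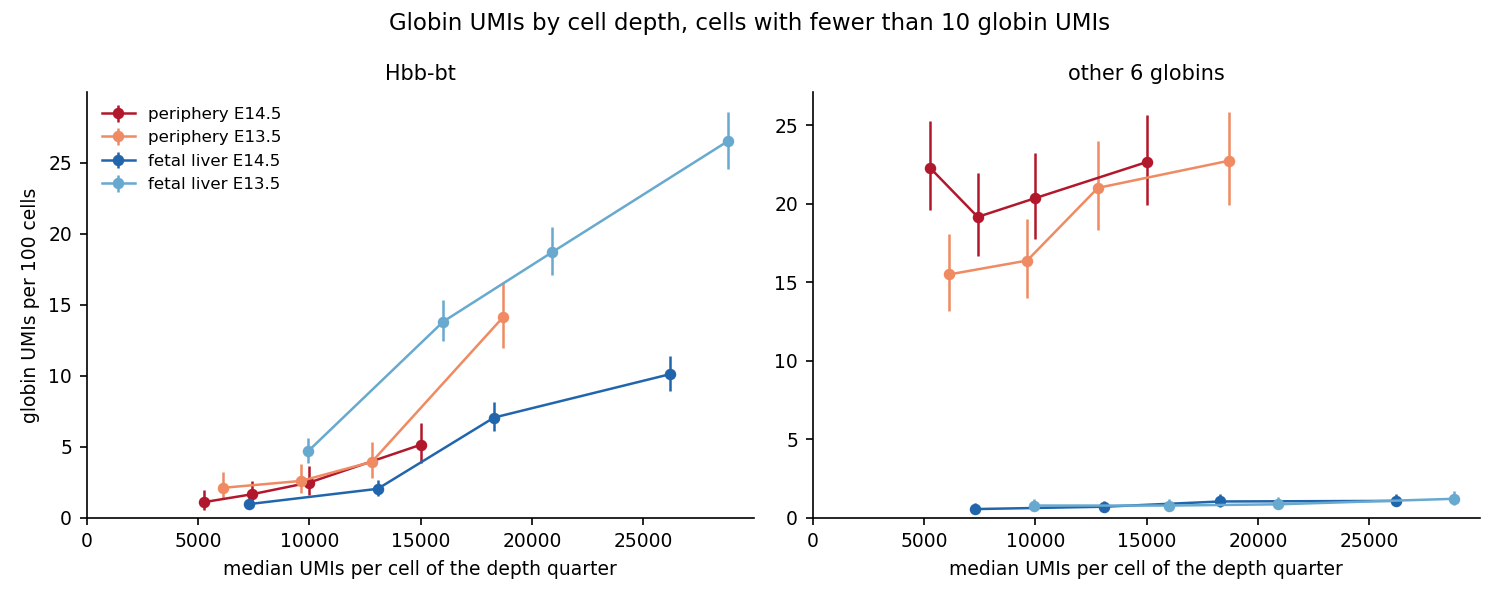
Globin UMIs per 100 cells in 4 equal groups of cells ordered by depth, for cells with fewer than 10 globin UMIs, with Hbb-bt and the other 6 genes apart and 1 line per library. In periphery at E14.5 the other 6 genes stay between 19.2 and 22.7, while Hbb-bt in fetal liver reaches 26.5 at E13.5.

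How far the embryonic part of the globin message differed between the stages of periphery depended on the cells and genes counted. Over all kept cells the embryonic genes Hbb-y and Hbb-bh1 gave 41.7% (38.7 to 44.7) of the beta type UMIs in periphery at E14.5 and 42.6% (41.8 to 43.5) at E13.5, and 6.44 and 4.52% in fetal liver. These shares depend on the P18 cells and on the pair of rich barcodes. Over all kept cells without Hbb-bt they were 83.5% (80.1 to 86.5) in periphery at E14.5 and 56.2% (55.2 to 57.1) at E13.5. In cells with fewer than 10 globin UMIs they were 69.1% (65.4 to 72.6) and 58.1% (54.7 to 61.5), with intervals apart. In the same cells without Hbb-bt they were 83.5% (80.1 to 86.6) and 81.5% (78.1 to 84.6), with intervals that overlap. Among the alpha type UMIs of the same cells Hba-x gave 12.2% (9.07 to 15.9) at E14.5, 46 of 377 UMIs, against 33.2% (26.6 to 40.2) at E13.5, 65 of 196. The adult alpha genes together stood at 7.88 CPM (7.05 to 8.78) at E14.5 and 2.62 CPM (2.19 to 3.11) at E13.5 in these cells, while Hba-x stood at 1.10 and 1.30 CPM with overlapping intervals. The embryonic beta share of fetal liver in such cells was 2.17% (1.16 to 3.69) at E14.5 and 1.94% (1.34 to 2.72) at E13.5 with Hbb-bt counted. Without Hbb-bt it was 23.6% (13 of 55 UMIs) and 49.3% (33 of 67 UMIs).

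Between the stages of periphery, 6 globin genes were measured, that is at 10 CPM or more in either library, and all 6 were more than 2-fold lower at E14.5 than at E13.5. Over all genes 1.44% of 7237 measured genes were that much lower and 3.15% that much higher. On the log2 scale after adding 5 CPM, which understates folds of low genes, the difference E14.5 minus E13.5 was -3.68 for Hbb-bs, -2.87 for Hbb-y, -2.48 for Hba-a1, -2.31 for Hba-a2, -1.92 for Hbb-bt and -1.40 for Hba-x. The sum gave -3.19 (-3.27 to -3.10, from the outer ends of both intervals), with a median of 0.23 over all measured genes. All of this rested on the pair of P10 barcodes: without them the difference of the sum was 0.33. Without all globin-rich cells it was 0.21, and 0 of the 6 genes were past 2-fold in either direction. Hba-a1 then stood at 4.90 CPM (4.26 to 5.62) at E14.5 against 1.56 CPM (1.23 to 1.95) at E13.5, with a log2 difference of 0.59, and Hba-a2 at 2.98 against 1.06 CPM, with 0.40. Hbb-y stood at 10.7 against 9.32 CPM and Hbb-bs at 2.12 against 2.18 CPM, both with overlapping intervals, and Hbb-bt at 2.69 (2.22 to 3.23) against 4.74 CPM (4.16 to 5.38).

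Between the stages of fetal liver Hbb-bt was the 1 measured globin. It stood at 3.48 CPM at E14.5 against 10.1 CPM at E13.5, a log2 difference of -0.83 (-0.92 to -0.74) that was not past 2-fold on that scale, where 0.349% of 7742 genes were past 2-fold lower and 1.24% higher. The 4 clusters FL7, FL2, FL0 and FL1, where Hbb-bt was high, made up 14.9% of the cells at E14.5, against 5132 of 10263 at E13.5, and the B lineage-like clusters, where it was low, made up 39.8% against 4.45%. Within FL1, FL2 and FL0 the intervals of the stages overlapped, while in FL7 the level was lower at E14.5. That difference in FL7 depended on the clustering. In the matching clusters it was kept at resolution 0.5 (6.86 against 9.12 CPM) and with seed 2 (13.6 against 26.5 CPM). At resolution 2 it was not, with 13.1 CPM at E14.5 against 12.9 CPM at E13.5. The part of the cell make-up in the difference was not tested. The adult alpha genes were higher at E14.5, at 1.96 CPM (1.76 to 2.18) against 0.161 CPM (0.110 to 0.228), and stood at 0.190 CPM (0.132 to 0.266) against 0.131 CPM (0.0859 to 0.193) without the globin-rich cells.

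Between tissues at E13.5, all 6 measured globin genes were more than 2-fold higher in periphery than in fetal liver, where 7.07% of 7986 measured genes were that much higher. The log2 difference of the sum was 4.498 (4.435 to 4.56), and the median of all genes was -0.41. Without the globin-rich cells 1 of the 6 was past 2-fold, Hbb-y at 9.32 CPM (8.495 to 10.2) in periphery against 0.116 CPM (0.0737 to 0.175) in fetal liver, a log2 difference of 1.49. Hbb-bt was then lower in periphery, at 4.74 against 8.25 CPM (log2 -0.44). At E14.5 both measured globin genes, Hbb-y and Hbb-bt, were more than 2-fold higher in periphery, against 9.72% of 8117 genes. The log2 differences were 1.57 (1.45 to 1.68) for Hbb-y and 1.08 (0.94 to 1.21) for Hbb-bt, and the sum gave 1.77. Without the globin-rich cells Hbb-y kept 1.63 and Hbb-bt had -0.064, with 2.69 CPM (2.22 to 3.23) in periphery against 3.04 CPM (2.79 to 3.31) in fetal liver.

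Genes close to specific for red cells were near absent outside the rich barcodes. Of 15 erythroid genes found that encode no globin, Alas2, Slc4a1, Rhag and Epb42, which are close to specific for red cells, stood at no more than 1.17 CPM in any library. Alas2 had 1.17 CPM in periphery at E13.5 and 0.0800 CPM there without the globin-rich cells. Car2, Blvrb, Fech and Tfrc, which many other cells also use, were the 4 measured ones, and 0 of them were past 2-fold between stages in either tissue. Between tissues Blvrb was past 2-fold higher in periphery at E13.5 (log2 1.60), and at E14.5 Car2 was higher (1.16) and Tfrc lower (-1.62). Hemgn was not measured by the 10 CPM limit and stood, without the globin-rich cells, at 4.21 and 3.20 CPM in periphery and 1.06 and 1.41 CPM in fetal liver at E14.5 and E13.5. Of 10 genes of haem synthesis and iron import, 7 were measured between the stages of periphery and 9 between those of fetal liver, with 0 past 2-fold. The 6 other globin family genes, among them Hbq1b and the neuronal Ngb, were all at or below 0.12 CPM.

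Of 11 regulators of globin genes, 6 were measured at E13.5 between tissues, and all 6 were more than 2-fold lower in periphery, as were 1700 of 7986 genes in all (21.29%). At E14.5 it was 3 of 5, against 1178 of 8117 genes (14.51%). Bcl11a, a repressor of embryonic and fetal globin genes, stood at 33.4 CPM in periphery against 259 CPM in fetal liver at E14.5, and at 57.0 against 279 CPM at E13.5. Lmo2, a bridging factor of the GATA1 complex, stood at 2.29 against 78.2 CPM at E14.5 and at 8.76 against 173 CPM at E13.5. Myb, which keeps progenitors immature, stood at 20.5 against 191 CPM at E14.5 and at 18.02 against 127 CPM at E13.5. Klf1, which activates the adult beta genes, stood between 0.378 and 0.733 CPM in the 4 libraries, and Gata1 between 2.29 and 4.66 CPM. These genes also serve lymphoid and stem cells, and their level is not a measure of globin regulation. Between the stages of fetal liver 1 of 6 measured regulators was past 2-fold, Lmo2, at 78.2 CPM at E14.5 against 173 CPM at E13.5, where 0.349% of all measured genes were that much lower. Between those of periphery it was 0 of 4.

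The genes most like the globin sum over all 57 units of 1 cluster in 1 library with at least 50 cells were mostly ribosomal protein genes. The Pearson correlation of log2 levels was 0.72 for Rplp1 and 0.71 for Rpl35a, followed by Pf4 at 0.69, Rpl32 and Rpl34 at 0.68, Rpl37a, Eif4a2, Rps19, Vti1b and Pak4. These units share 4 libraries and 2 kits. Over the 34 fetal liver units alone the gene most like Hbb-bt was Calcrl at 0.82, an endothelial and stem cell receptor gene, followed by Dnmt3b at 0.77, Thsd1 and Ctla2a at 0.74 and, further down, Hoxa9 at 0.72, while Pf4 at 0.90 was most like the other 6 globin genes. Cluster FL6 at E14.5, which holds the 3 rich barcodes, had 49.8 CPM of Pf4, from 2 of its 322 cells, against 0.332 CPM in the rest of that library.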

How the data were processed

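The deposited matrices hold raw UMI counts per gene and barcode, not normalized. The submitters' processing notes name Cell Ranger version 3 and mm10. Per the file headers the release was 3.0.1 in periphery and 3.0.0 in fetal liver. Periphery was counted over 28427 genes and fetal liver over 31053.

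A barcode needed 500 genes or more and no more than 10% of its UMIs from mitochondrial genes. Scrublet (scanpy 1.11.5) scored doublets in each library, with 0.8% expected for every 1000 barcodes. The threshold it chose was accepted between 0.5 and 15% of barcodes, as in fetal liver (7.98 and 3.55% at E14.5 and E13.5). In periphery it marked 0 and 0.116% at E14.5 and E13.5, and the highest scores up to the expected share were taken instead (3.35 and 3.25%). Marked barcodes were left out.

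Cells of each tissue were clustered together over both stages. Counts were scaled to 10000, and 2000 variable genes were taken, without globin, mitochondrial, ribosomal protein and cell cycle genes. Further settings were 30 principal components, 15 neighbours and Leiden at resolution 1. A cluster is called by a type and "-like" where at least 3 and most of the type's markers were detected. Their mean level also had to lie above the mean of the clusters, and the leading genes did not go against the name. CPM, shares and exact intervals were computed with Python 3.11.15 and scipy 1.17.1, and transcripts were aligned with Biopython 1.88. Thinning and folds were tested on simulated counts.

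The genes named are the 7 globins, the measured members of the fixed lists with values for the highest, and the 10 genes most correlated with the globin sum. Genes most like Hbb-bt alone and like the other 6, genes shown for P18 and the split of cells by marker genes were chosen after their values were seen. The members and lists were chosen with earlier results of these data known. Some marker genes are not reported here. Libraries without replicates allow no test, and p-values are not given. The genome build of the sequences and positions, GRCm38, is that of mm10, but the gene model release behind the counts is not given in the sources used here. Alternative filters, cell weights, denominators, added CPM, thinning depths and clusterings were tried. Leaving out the pair of rich barcodes or P18 and the other clusterings were chosen after seeing the data.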

Additional observations from a re-analysis of the deposited data

Results flagged for a closer look

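For 3 genes flagged here the difference between stages had opposite signs in the tissues. So had Hba-x, at log2 -1.40 in periphery and 0.011 in fetal liver. In fetal liver these genes were all below the limit of 10 CPM at both stages. Hbb-bs was lower at E14.5 than at E13.5 in periphery (log2 -3.68) and higher in fetal liver (0.15), so that the periphery value minus the fetal liver value was -3.83. Hba-a1 gave -2.48 and 0.27, a difference of -2.75, and Hba-a2 gave -2.31 and 0.20, a difference of -2.51. With 1 library per group these differences were not tested. They rest on 2 barcodes of periphery at E13.5 and 3 of fetal liver at E14.5. Without globin-rich cells the same folds were -0.01, 0.59 and 0.40 in periphery and 0.02, 0.01 and 0.00 in fetal liver.

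Barcodes outside the filters, which enter no comparison, had a higher globin level in CPM than the kept cells at E14.5. They were shallow, and CPM divides by their few UMIs. In periphery at E14.5 the 503 such barcodes had 301 globin UMIs, or 677 CPM (602 to 757), against 34.7 CPM in kept cells. A pair of them held 74 and 66 UMIs, and without that pair the level was 363 CPM (309 to 423). In fetal liver at E14.5 the 388 such barcodes stood at 29.6 CPM (19.0 to 44.1), against 6.61 CPM in kept cells, and at 11.1 CPM (5.09 to 21.1) without the highest 2. Counted per barcode they held less, with 24 globin UMIs in the 388 against 1181 in 10768 kept cells. At E13.5 such barcodes stood at 160 CPM (118 to 211) in periphery, lower than the 356 CPM of kept cells, and at 12.0 CPM (3.26 to 30.7) in fetal liver, from 4 UMIs, against 10.99 CPM. Their median depth was 707, 1069.5, 1766 and 1460 UMIs in periphery at E14.5, periphery at E13.5, fetal liver at E14.5 and fetal liver at E13.5. In kept cells it was 8503, 11081, 15586.5 and 18450 UMIs in the same order. The cause of the difference in CPM at E14.5 was not tested.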

How the results depend on the processing

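No paired analysis was possible because each group has 1 library. Differences past 2-fold reversed in 3 of the 48 log2 values of the globin sum under alternatives and in 14 of the 336 of single genes. The sum between the stages of fetal liver, not past 2-fold at -0.46, also changed sign, to 0.28 as a mean of single cells. The 3 reversals of the sum concern periphery E14.5 over E13.5 and share 1 source: the pair of E13.5 barcodes with the most globin UMIs has 518 and 575 genes, so a minimum of 1000 genes removes them too. That minimum gave 0.31 for the sum, 0.24 for Hbb-bt, 0.044 for Hbb-y, 0.57 for Hba-a1 and 0.38 for Hba-a2. Without the pair the values were 0.33, 0.23, 0.078, 0.58 and 0.38. Without globin-rich cells they were 0.21 for the sum, 0.13 for Hbb-y, 0.59 for Hba-a1 and 0.40 for Hba-a2. In periphery over fetal liver Hbb-bt reversed to -0.44 at E13.5 and -0.064 at E14.5 without globin-rich cells, and to -0.19 at E14.5 without P18.

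The summed CPM of periphery at E14.5 became 40.8 with all barcodes, 24.5 without globin-rich cells, 40.4 as a mean of single cells and 24.3 without P18. That of periphery at E13.5 became 338 with all barcodes, 26.3 with the 1000-gene minimum, 339 with doublets kept, 20.4 without globin-rich cells, 415 as a mean of single cells and 26.7 without the pair. Fetal liver at E14.5 became 5.37 with a 5% mitochondrial limit, 6.15 with doublets kept, 3.55 without globin-rich cells and 14.1 as a mean of single cells. Fetal liver at E13.5 became 11.9 with the 5% limit and 8.72 without globin-rich cells.

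The log2 difference of the sum between the stages of periphery became -2.90 with all barcodes, -3.61 without P18, -3.32 without ribosomal and mitochondrial genes in the denominator and also -3.32 with 1 CPM added, -2.78 with 20 CPM added and -3.41 minus the all-gene median. Between the stages of fetal liver it became -0.70 with the 5% limit, -0.68 without globin-rich cells, -0.66 with 1 and -0.22 with 20 CPM added. For periphery over fetal liver at E13.5 it became 4.43 with all barcodes, the 5% limit or doublets kept, 0.97 with the 1000-gene minimum, 0.89 without globin-rich cells, 0.99 without the pair, 4.74 as a mean of single cells, 4.75 with the other denominator, 4.90 with 1 and 3.60 with 20 CPM added and 4.91 minus the median. At E14.5 it became 2.03 with all barcodes, 1.93 with the 5% limit, 1.25 as a mean of single cells, 1.33 without P18, 1.94 with the other denominator and also minus the median, 2.23 with 1 and 1.04 with 20 CPM added.

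The embryonic beta share of periphery at E14.5 became 45.9% with all barcodes, 69.1% without globin-rich cells and 70.2% without P18. At E13.5 it became 44.5% with the 1000-gene minimum, 58.1% without globin-rich cells and 44.9% without the pair, and the embryonic alpha share became 33.7, 33.2 and 33.7% in the same order. In fetal liver without globin-rich cells the beta share became 2.17% at E14.5 and 1.94% at E13.5 (1.90% with the 5% limit), and the alpha share 5.56% at E14.5. Cells with a globin UMI made up 2.93 and 2.39% of periphery at E14.5 and E13.5 and 0.355 and 0.927% of fetal liver after thinning to 1000 UMIs, 11.5 and 9.73% and 1.34 and 3.83% after thinning to 5000, and 19.9 and 17.9% and 4.18 and 9.82% without thinning.

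Hbb-bt in the clusters that took the largest number of cells of FL7 stood at 6.86 CPM at E14.5 and 9.12 CPM at E13.5 with resolution 0.5. In the same order it stood at 13.1 and 12.9 CPM with resolution 2, and at 13.6 and 26.5 CPM with seed 2. For FL1 it was 11.4 CPM at E13.5 with resolution 0.5, 24.9 and 26.6 CPM at E14.5 and E13.5 with resolution 2, and 12.8 CPM at E13.5 with seed 2. Where no cause is named here, the cause was not tested. With 1 library per group, depth limits every statement on Hbb-bh1 and on the alpha type genes of fetal liver at E13.5, and no value has a replicate check.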

Other observations

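Cells of fetal liver were also split by single marker genes in place of clusters. At E13.5, the 889 cells with a UMI of Hlf, a transcription factor gene of blood stem cells, had 34.4 CPM (31.9 to 37.1) of Hbb-bt, against 7.39 CPM (6.995 to 7.80) in cells without one. At E14.5 the 318 cells with an Hlf UMI had 10.45 CPM (8.15 to 13.2), against 3.21 CPM (2.95 to 3.49). Cells with a UMI of Cd79a, a B cell receptor chain gene, had less, at 1.55 CPM (1.32 to 1.81) against 6.02 CPM at E14.5 and 3.12 CPM (2.41 to 3.98) against 10.9 CPM at E13.5. Other markers did not separate the cells alike at both stages. Cells with a UMI of Flt3 had 4.10 against 2.14 CPM at E14.5 and 9.78 against 12.8 CPM at E13.5. Those with a UMI of Tcf7, a marker of FL1, had 6.32 against 3.16 CPM at E14.5 and 9.33 (8.23 to 10.54) against 10.2 CPM (9.72 to 10.7) at E13.5, and those with a UMI of Id2 had 4.78 against 2.86 CPM and 7.45 against 13.4 CPM. Cells with an Hlf UMI were somewhat deeper, with a median of 20928 UMIs against 18192 at E13.5.

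A cell of fetal liver at E13.5 in cluster FL6 held 11 UMIs of Hbb-bh1 and 10 of Hbb-bt among 15867, with 0 of the other 5 globin genes.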
